A study of Mus musculus with 10 samples.

Results

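The genes described here are the ephrins, the Eph receptors, the slits and their Robo receptors, and the netrins with their Dcc, Neo1 and Unc5 receptors. They are families of short-range and secreted cues, with their receptors, that steer axons and sort cells. Matching their gene symbols found 30 genes among the 20483 of the expression table: 12 ligands (Efna1, Efna2, Efna3, Efna5, Efnb1, Efnb2, Efnb3, Slit1, Slit2, Slit3, Ntn1 and Ntng1) and 18 receptors. Efna4, Epha1, Epha2, Ephb3, Ephb4, Robo3, Robo4, Ntn3, Ntn4, Ntn5 and Ntng2 were not among them, so class sums cover only the genes found. The study took tissue of 2 parts of the nucleus accumbens shell of wild-type mice, the lateral shell (5 libraries) and the medial shell (5 libraries), and its title asks how such subregions differ in reward processing. The labels give no treatment, age or sex, call the cells mouse neural cells, and do not say whether each biological replicate was a separate animal, so the p-values measure the spread between these libraries, which may be partly technical. Small pieces of tissue section were captured and their RNA amplified with Geo-seq, a low-input method, before transposase-based library preparation. Values are TPM, transcript abundances divided by gene length and by the library total. They can be compared between genes, but the depth of each library is unknown.

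Ephrins are ligands that stay on the cell surface: the A class is held by a lipid anchor and the B class crosses the membrane. They bind Eph receptors, which are tyrosine kinases, on a touching cell, and signal into both cells, usually as repulsion or as a boundary between cell groups. Slits are secreted proteins that repel axons through Robo receptors. Netrin-1 attracts axons through Dcc and repels them when Unc5 receptors take part, whereas netrin-G1 is a membrane-anchored relative that binds the adhesion protein encoded by Lrrc4c in place of Dcc. In the adult brain these families also act at synapses, and in the striatum Eph receptors and ephrins are known for marking its compartments.

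Of the 30 genes, 28 had at least 1 TPM in at least 5 of the 10 libraries and were tested with limma on log2(TPM + 1), together with all 15596 genes that met this filter. At a Benjamini-Hochberg adjusted p under 0.05, 0 members were higher in lateral and 2 in medial, both of them ephrins, Efna5 and Efnb2. Over all genes tested, 0.385% were called higher in lateral (60 genes) and 1.1% higher in medial (171 genes), 1.48% in either direction. This imbalance depended on the scaling, with 88 genes higher in lateral and 82 in medial under median-ratio scaling, and 86 in lateral and 100 in medial under quantile normalization. Efna5 and Efnb2 were also called under median-ratio scaling and under quantile normalization, where 0.526% and 0.641% of all genes were called higher in medial. At an unadjusted p under 0.05, 2 members were higher in lateral (3.03% of all genes) and 6 in medial (12.3% of all genes), or 8 of 28 against 15.4% of all genes in either direction. The groups' values did not overlap for 3 members, Efna5, Efnb2 and Efnb3, all higher in medial. Of all genes 0.859% did not overlap and were higher in lateral, and 3.39% in medial, 4.25% in either direction. Log2 fold changes are lateral minus medial. Their median was -0.05 over the 28 members and -0.21 over all genes tested, and 68.7% of all genes tested had a value below 0 at this scaling. Median-ratio scaling moved the median of all genes to -0.02 and quantile normalization to -0.0010. Among the 11 tested ligands 9 had a log2 fold change below 0 (median -0.60), and among the 17 tested receptors 11 had one above 0 (median 0.08). Under median-ratio scaling these counts were 7 of the 11 ligands and 11 of the 17 receptors.

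**Figure D1:**
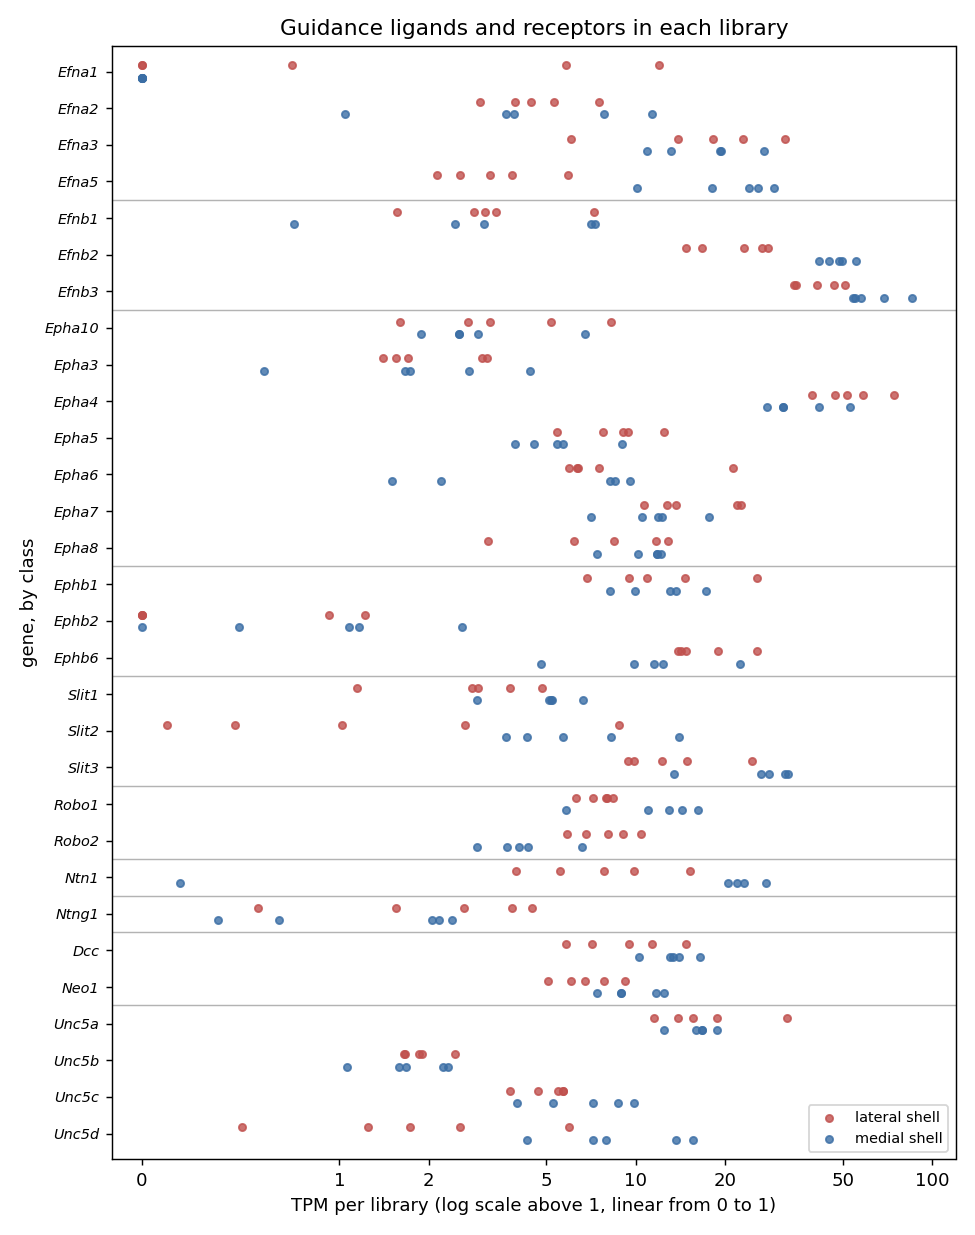
Each point is 1 library, with lateral shell libraries in red above medial shell libraries in blue, for all 30 genes ordered by class; the x axis is TPM, linear from 0 to 1 and logarithmic above. The points of the regions separate completely for Efna5, Efnb2 and Efnb3, and Epha4 and Efnb3 have the highest levels.

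Efna5, encoding the lipid-anchored ligand ephrin-A5, had the largest log2 fold change of the 28 tested members. It lies on chromosome 17 (62604184 to 62881317, minus strand, GRCm38). It was at 3.82, 2.55, 5.91, 3.23 and 2.14 TPM in lateral replicates 1 to 5, against 10.1, 29.4, 25.9, 18.1 and 24.1 TPM in medial replicates 1 to 5. Every lateral library was below every medial library, and the lowest medial value was that of medial replicate 1. The means were 3.53 ± 1.48 TPM in lateral shell and 21.5 ± 7.59 TPM in medial shell libraries (SD, n = 5 each). The log2 fold change was -2.29 ± 0.33 (standard error, adjusted p = 0.00541 in limma), and it remained called under all 22 alternatives, with an adjusted p of up to 0.0452. With a pseudocount of 5 it was -1.60.

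No difference was called for Efna3 and Efna2, the other ephrin-A genes tested. Efna3 had the highest mean of the class over all 10 libraries, though not over the medial ones, at 13.9, 32, 18.3, 6.04 and 23.0 TPM in lateral shell and 13.2, 10.9, 27.1, 19.3 and 19.4 TPM in medial shell libraries. Its groups overlapped throughout (log2 fold change -0.06, 95% confidence interval -0.87 to 0.76, adjusted p = 0.96 in limma), and the sign turned under other scalings. Efna2 averaged 4.83 ± 1.72 TPM in lateral shell and 5.55 ± 4.04 TPM in medial shell libraries (SD, n = 5 each; log2 fold change 0.04, 95% confidence interval -0.94 to 1.01). Efna1 fell below the filter and was not tested: it was listed at 12, 0.761, 0, 0 and 5.83 TPM in lateral replicates 1 to 5 and at 0 in all 5 medial libraries. Efna5 made up 5.56% to 26.3% of the summed ephrin-A TPM in lateral libraries, against 41.4% to 61.0% in medial shell libraries, without overlap.

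Efnb2, encoding the transmembrane ligand ephrin-B2, which arterial endothelium also makes, was the other called member. It lies on chromosome 8 (8617434 to 8661242, minus strand). It was at 28, 23.3, 14.8, 16.7 and 26.8 TPM in lateral replicates 1 to 5, against 49.5, 48.4, 44.9, 41.6 and 55.3 TPM in medial replicates 1 to 5. The highest lateral library stood well below the lowest medial one. The log2 fold change was -1.13 ± 0.21 (standard error, adjusted p = 0.0192 in limma; -1.0 with a pseudocount of 5 and -0.92 under median-ratio scaling). The call was lost under 4 of the 22 alternatives, among them those without medial replicate 2 (adjusted p = 0.0579), without medial replicate 5 (0.0503) and without both lateral replicate 5 and medial replicate 2 (0.086). E230020D15Rik and Gm45073, annotated inside Efnb2 on the same strand, were also higher in medial (log2 fold changes -1.72 and -2.27, adjusted p = 0.0323 and 0.0368 in limma), and reads there may be counted to either. Gm45074, which overlaps Efnb2 on that strand too, was not called (-1.66, adjusted p = 0.205 in limma).

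Efnb3, encoding ephrin-B3 (chromosome 11, 69554092 to 69560205, minus strand), had the highest mean of the 30 genes over all 10 libraries, although Epha4 was higher over the lateral ones. It was at 50.7, 41.0, 34.1, 46.7 and 34.8 TPM in lateral replicates 1 to 5, against 57.5, 54.9, 68.7, 53.9 and 85.6 TPM in medial replicates 1 to 5. The groups did not overlap, but the gap between them was small (log2 fold change -0.61, 95% confidence interval -1.01 to -0.21), and the difference did not pass the adjustment over all genes (adjusted p = 0.14 in limma). Efnb1 averaged 3.62 ± 2.12 TPM in lateral shell and 4.14 ± 2.91 TPM in medial shell libraries (SD, n = 5 each; log2 fold change -0.04, 95% confidence interval -1.07 to 0.99). Summed over the 3 genes, ephrin-B stood at 56.2 to 82.1 TPM in lateral shell and 98.0 to 148 TPM in medial shell libraries, a description to which no test was applied.

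**Figure D2:**
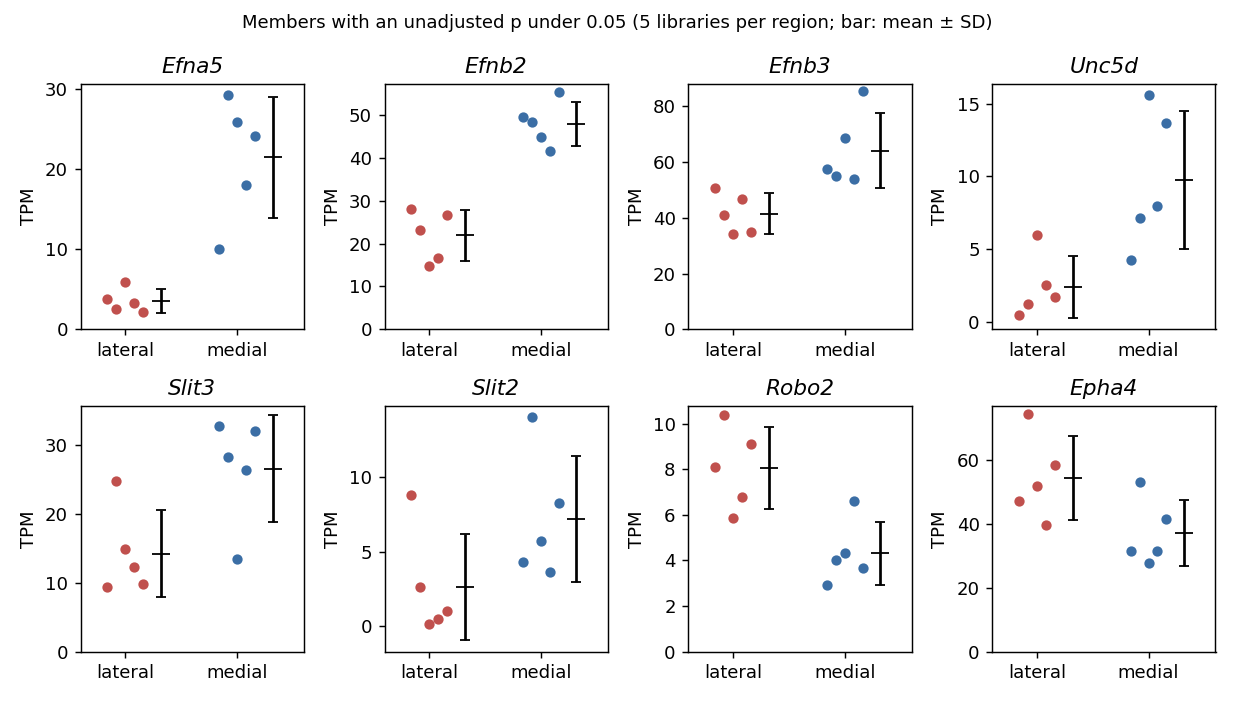
TPM of the 8 members with an unadjusted p under 0.05, 1 point per library, lateral left and medial right, with the mean ± SD beside each group. Efna5, Efnb2 and Efnb3 separate without overlap; Slit3, Slit2, Unc5d, Robo2 and Epha4 overlap by 1 or more libraries.

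Because the 2 called members moved in the same direction, the 250 bases before their RefSeq transcription starts (GRCm38.p6) are shown with those of Epha4, the Eph receptor gene with the highest mean, for comparison. RefSeq gave such windows for 25 of the 30 genes. The windows, read 5′ to 3′ on each gene's own minus strand, are chr17:62881318-62881567 for Efna5, chr8:8661243-8661492 for Efnb2 and chr1:77515089-77515338 for Epha4. Capitals mark every match on either strand to 3 common promoter motifs, the GC box (GGGCGG or CCGCCC), the CCAAT box (CCAAT or ATTGG) and the TATA box (TATAAA or TTTATA); no matches overlapped.
Efna5: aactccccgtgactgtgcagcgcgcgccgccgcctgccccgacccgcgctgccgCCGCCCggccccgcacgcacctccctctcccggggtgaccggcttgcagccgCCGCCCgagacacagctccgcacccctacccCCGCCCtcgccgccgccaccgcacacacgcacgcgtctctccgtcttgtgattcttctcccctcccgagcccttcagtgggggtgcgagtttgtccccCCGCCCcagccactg
Efnb2: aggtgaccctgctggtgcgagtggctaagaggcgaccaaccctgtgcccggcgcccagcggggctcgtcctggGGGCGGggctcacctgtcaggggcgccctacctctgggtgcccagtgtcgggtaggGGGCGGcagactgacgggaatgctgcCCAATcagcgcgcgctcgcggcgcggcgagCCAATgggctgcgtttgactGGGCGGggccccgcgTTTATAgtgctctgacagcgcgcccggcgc
Epha4: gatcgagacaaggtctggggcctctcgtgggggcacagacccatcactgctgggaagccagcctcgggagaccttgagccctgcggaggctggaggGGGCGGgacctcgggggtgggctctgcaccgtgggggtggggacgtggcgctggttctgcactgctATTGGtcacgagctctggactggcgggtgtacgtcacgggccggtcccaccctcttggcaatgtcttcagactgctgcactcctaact

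The Efna5 window held 4 GC boxes and neither of the other motifs, the Efnb2 window 3 GC boxes, 2 CCAAT boxes and 1 TATA box, and the Epha4 window 1 GC box and 1 CCAAT box. Over 32851 such windows of RefSeq genes, 32.7% held a GC box, 33.8% a CCAAT box and 12.4% a TATA box. The windows of Efna5 and Efnb2 were rich in CpG, with 32 and 27 CpG dinucleotides against a median of 6 over all windows, and Epha4 had 14. The letters describe these windows and were not tested against the expression values.

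Among the EphA receptors, the partners of the A ephrins, none passed. Of the 7 genes 6 had a log2 fold change above 0 (class median 0.42), as they also had under median-ratio scaling, quantile normalization and rescaling without mitochondrial and haemoglobin genes. Epha4 (chromosome 1, 77367185 to 77515088, minus strand), whose product binds both ephrin classes, was at 47.2, 74.4, 51.8, 39.5 and 58.3 TPM in lateral replicates 1 to 5, against 31.5, 52.9, 27.7, 31.5 and 41.5 TPM in medial replicates 1 to 5. The groups overlapped, with 3 of the medial libraries below all lateral ones. Its log2 fold change was 0.55 (95% confidence interval 0.07 to 1.02, unadjusted p = 0.0274, adjusted p = 0.259 in limma). Epha4 provided 50.4% to 58.7% of the summed EphA TPM in lateral shell and 38.5% to 63.3% in medial shell libraries.

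The other EphA genes were lower in level. Epha7 averaged 16.3 ± 5.52 TPM in lateral shell and 11.9 ± 3.84 TPM in medial shell libraries (SD, n = 5 each; log2 fold change 0.42, 95% confidence interval -0.20 to 1.04). Epha5, encoding a high-affinity receptor for ephrin-A5, averaged 8.82 ± 2.58 TPM in lateral shell and 5.70 ± 1.95 TPM in medial shell libraries (0.55, 95% confidence interval -0.09 to 1.20). Epha6 averaged 9.51 ± 6.64 TPM in lateral shell and 6.0 ± 3.82 TPM in medial shell libraries (0.65, 95% confidence interval -0.38 to 1.69). Its values ranged over 5.95 to 21.3 TPM in lateral shell and 1.51 to 9.56 TPM in medial shell libraries. Epha8 was the exception in sign, at 8.46 ± 3.96 TPM in lateral shell and 10.7 ± 1.99 TPM in medial shell libraries (-0.41, 95% confidence interval -1.13 to 0.31). Epha10 and Epha3 averaged 4.20 and 2.17 TPM in lateral shell and 3.33 and 2.23 TPM in medial shell libraries, with log2 fold changes of 0.22 and 0.04, both of which changed sign when single libraries were left out. The adjusted p of these 6 genes in limma ran from 0.403 to 0.972.

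Among the EphB receptors, Ephb6, whose product lacks kinase activity, had the highest mean over all 10 libraries, though in medial libraries it was level with Ephb1. It was at 13.9, 25.7, 14.8, 14.2 and 19.0 TPM in lateral replicates 1 to 5, against 22.5, 9.84, 4.80, 11.5 and 12.4 TPM in medial replicates 1 to 5. Of the medial libraries 4 were below all lateral ones and medial replicate 1 was among the highest (log2 fold change 0.59, 95% confidence interval -0.13 to 1.31, adjusted p = 0.431 in limma). Ephb1 averaged 13.5 ± 7.31 TPM in lateral shell and 12.4 ± 3.51 TPM in medial shell libraries (SD, n = 5 each; 0.02, 95% confidence interval -0.68 to 0.73). Ephb2 fell below the filter, with a highest value of 1.22 TPM in lateral shell and 2.59 TPM in medial shell libraries, and was listed at 0 in 3 lateral libraries and 1 medial library.

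Setting ligand beside receptor within each library removes the scaling of that library. The ratio of Efna5 to Epha4 was 0.03 to 0.11 in lateral and 0.32 to 0.94 in medial shell libraries, without overlap. The ratio of summed ephrin-A to summed EphA TPM was 0.16 to 0.39 in lateral and 0.30 to 0.97 in medial shell libraries, where only medial replicate 1 fell into the lateral range. Summed ephrin-B exceeded summed EphB in every library, by 1.31 to 3.38 times in lateral and 3.00 to 9.30 times in medial shell libraries. The EphB sum leaves out Ephb3 and Ephb4, and the A class sums leave out Efna4, Epha1 and Epha2, which were not found. All of these ratios were formed after the values were seen and carry no test.

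**Figure D3:**
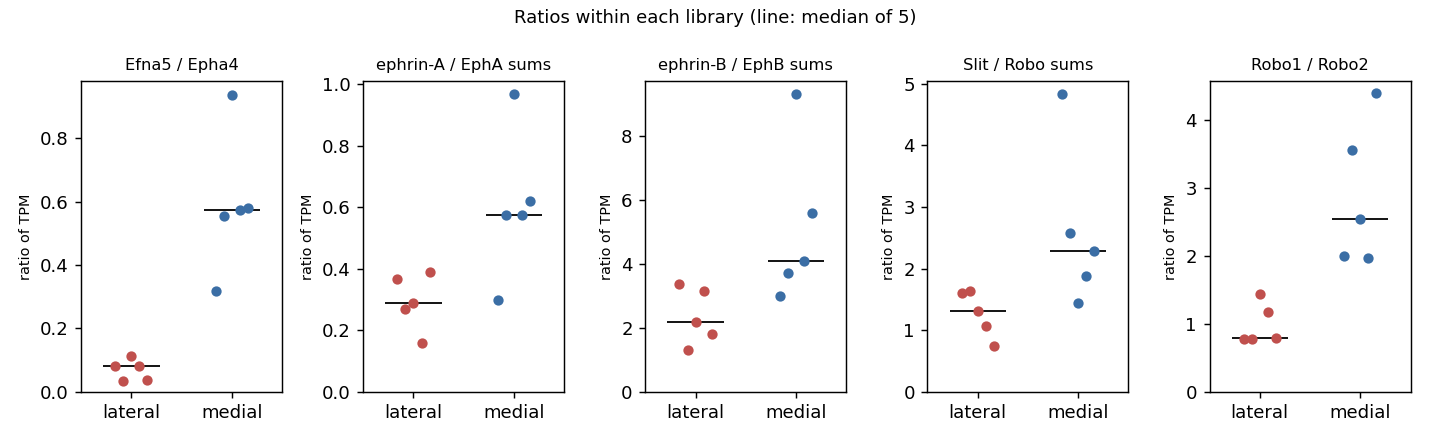
Ratio of TPM within each library for 5 pairs of genes or classes, 1 point per library, lateral left and medial right, with a line at the median of 5; each y axis starts at 0. The ratios Efna5 to Epha4 and Robo1 to Robo2 do not overlap between the regions, while the class ratios do. All were formed after the values were seen and carry no test.

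All 3 slit genes had log2 fold changes below 0, at every scaling, and none passed over all genes. Without rescaling, 68.7% of all genes tested were below 0 too. Slit3 (chromosome 11, 35121224 to 35708507, plus strand) had the highest level. It was at 9.39, 24.8, 14.9, 12.3 and 9.86 TPM in lateral replicates 1 to 5, against 32.7, 28.2, 13.5, 26.4 and 32 TPM in medial replicates 1 to 5. Medial replicate 3 lay inside the lateral range and the other medial libraries above it (log2 fold change -0.88, 95% confidence interval -1.53 to -0.23, unadjusted p = 0.0121, adjusted p = 0.188 in limma). Slit2 (chromosome 5, 47983138 to 48307733, plus strand) was at 8.78, 2.65, 0.130, 0.473 and 1.02 TPM in lateral replicates 1 to 5, against 4.29, 14.0, 5.69, 3.64 and 8.27 TPM in medial replicates 1 to 5. Only lateral replicate 1 reached medial levels (log2 fold change -1.51, 95% confidence interval -2.73 to -0.30, unadjusted p = 0.0186, adjusted p = 0.224 in limma, and -1.99 with an adjusted p of 0.0756 without that library). Leaving out other single libraries gave an adjusted p of up to 0.406 in limma. With a pseudocount of 0.1 and of 5 the Slit2 value was -2.32 and -0.72. Slit1 averaged 3.09 ± 1.35 TPM in lateral shell and 5.02 ± 1.33 TPM in medial shell libraries (SD, n = 5 each; -0.60, 95% confidence interval -1.36 to 0.17).

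The slit receptors Robo1 and Robo2 had opposite signs. Robo2 (chromosome 16, 73891839 to 74411825, minus strand) was at 8.08, 10.4, 5.85, 6.8 and 9.09 TPM in lateral replicates 1 to 5, against 2.92, 4.03, 4.34, 6.61 and 3.68 TPM in medial replicates 1 to 5. Medial replicate 4 alone reached the lateral range (log2 fold change 0.78, 95% confidence interval 0.15 to 1.41, unadjusted p = 0.0185, adjusted p = 0.224 in limma). Robo1 (chromosome 16, 72308306 to 73046095, plus strand) was at 6.29, 8.0, 8.40, 7.96 and 7.19 TPM in lateral replicates 1 to 5, against 5.81, 14.3, 11, 13.0 and 16.2 TPM in medial replicates 1 to 5. Except for medial replicate 1, the lowest of all 10, every medial library was above every lateral one (log2 fold change -0.55, 95% confidence interval -1.15 to 0.06, adjusted p = 0.378 in limma). The ratio of Robo1 to Robo2 was 0.77 to 1.44 in lateral and 1.96 to 4.39 in medial shell libraries and did not overlap, although the summed Robo TPM did, at 14.3 to 18.4 in lateral and 8.73 to 19.8 in medial shell libraries. This ratio too was formed after the opposite signs were seen, and it carries no test.

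Netrin-1 and its receptors gave no call. Ntn1 (chromosome 11, 68209364 to 68400823, minus strand) was at 15.3, 5.55, 9.86, 7.82 and 3.96 TPM in lateral replicates 1 to 5, against 20.5, 21.9, 23.2, 27.6 and 0.191 TPM in medial replicates 1 to 5. Medial replicates 1 to 4 were above all lateral libraries and medial replicate 5 was below all of them. The log2 fold change was -0.60 (95% confidence interval -2.19 to 0.99, adjusted p = 0.743 in limma), and without medial replicate 5 it was -1.47 (adjusted p = 0.0681). Leaving out other single libraries gave an adjusted p of up to 0.89 in limma. Ntng1, encoding netrin-G1, averaged 2.61 ± 1.59 TPM in lateral shell and 1.54 ± 0.93 TPM in medial shell libraries (SD, n = 5 each), with single values of 1.55, 3.81, 0.587, 4.48 and 2.63 TPM in lateral shell and 0.384, 0.697, 2.05, 2.17 and 2.40 TPM in medial shell libraries. These overlapped (0.46, 95% confidence interval -0.54 to 1.47).

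Dcc and Neo1, which encode the attractive netrin receptor and its relative neogenin, had similar small differences. Dcc was at 11.4, 14.7, 9.52, 5.81 and 7.14 TPM in lateral replicates 1 to 5, against 10.3, 14.0, 13.3, 16.5 and 13.0 TPM in medial replicates 1 to 5. The groups overlapped, with the lowest 3 of the 10 values in lateral libraries (log2 fold change -0.48, 95% confidence interval -1.06 to 0.10, adjusted p = 0.426 in limma). Neo1 averaged 6.99 ± 1.61 TPM in lateral shell and 9.88 ± 2.1 TPM in medial shell libraries (SD, n = 5 each; -0.45, 95% confidence interval -1.0 to 0.11).

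Of the 4 Unc5 receptor genes, Unc5d (chromosome 8, 28646717 to 29219636, minus strand) differed most. It was at 0.508, 1.25, 5.98, 2.56 and 1.73 TPM in lateral replicates 1 to 5, against 4.28, 7.18, 15.6, 7.95 and 13.7 TPM in medial replicates 1 to 5. Lateral replicate 3 was the one lateral library inside the medial range. The log2 fold change was -1.74 (95% confidence interval -2.71 to -0.76, unadjusted p = 0.00195) and did not pass the adjustment over all genes (adjusted p = 0.0809 in limma), though it did without lateral replicate 3 (-2.04, adjusted p = 0.0411). This was the 1 of 22 alternatives that called Unc5d, and leaving out other single libraries gave an adjusted p of up to 0.178 in limma. With a pseudocount of 5 the value was -0.97. Gm9911, annotated inside Unc5d on the same strand, was at 0.110 to 4.42 TPM in lateral shell and 6.34 to 18.0 TPM in medial shell libraries (log2 fold change -2.24, adjusted p = 0.0367 in limma), and reads there may be counted to either. Svet1 and Gm45652, which overlap Unc5d on that strand too, were not called (-1.63 and -0.24, adjusted p = 0.128 and 0.842 in limma).

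Unc5a had the highest mean of the Unc5 genes, at 15.6, 32.3, 18.8, 11.5 and 13.9 TPM in lateral shell and 16, 18.9, 12.5, 16.8 and 16.8 TPM in medial shell libraries. Its groups overlapped (0.10, 95% confidence interval -0.47 to 0.67). Unc5c averaged 5.05 ± 0.84 TPM in lateral shell and 7.02 ± 2.42 TPM in medial shell libraries (SD, n = 5 each; -0.36, 95% confidence interval -1.01 to 0.29), and Unc5b averaged 1.91 ± 0.33 and 1.78 ± 0.52 TPM in lateral shell and in medial shell libraries (0.08, 95% confidence interval -0.68 to 0.84). Unc5d made up 2.19% to 18.5% of the summed Unc5 TPM in lateral shell and 16.1% to 42.2% in medial shell libraries.

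**Figure D4:**
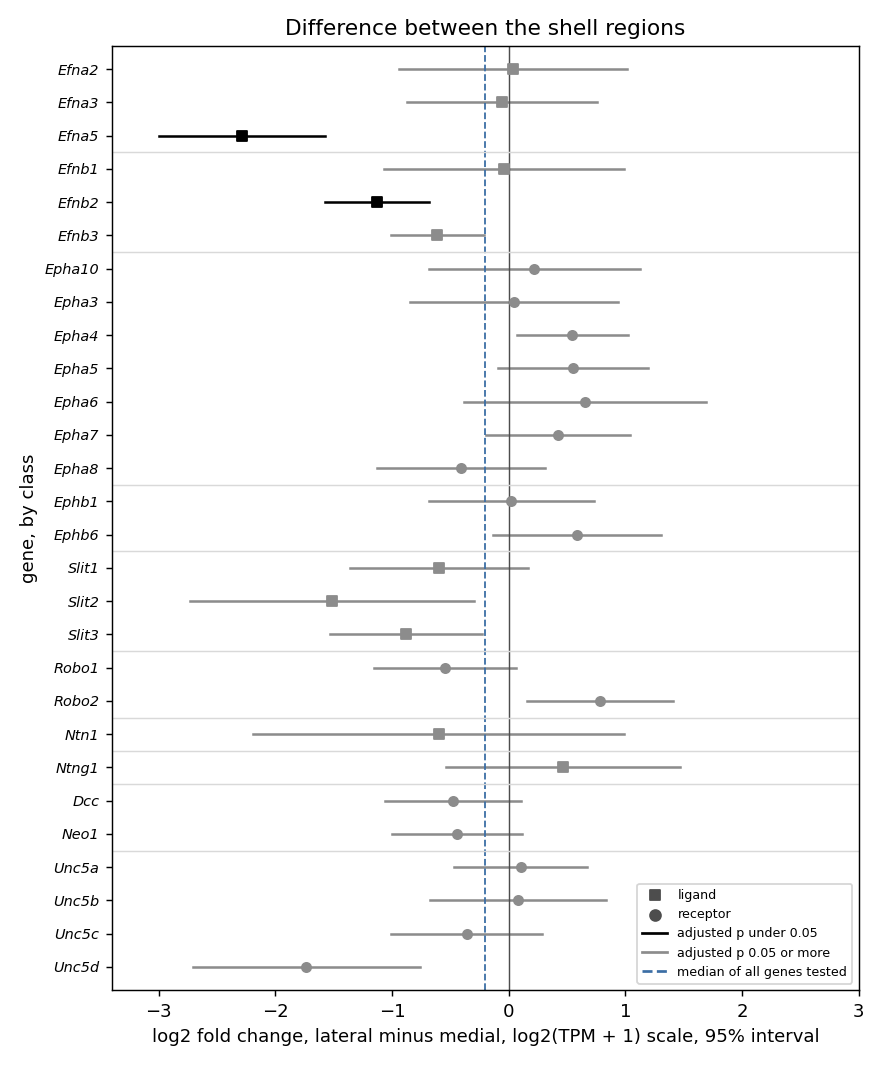
Log2 fold change, lateral minus medial, as a difference of log2(TPM + 1), with its 95% confidence interval for the 28 tested members, squares for ligands and circles for receptors; black marks an adjusted p under 0.05. Efna5 at -2.29 and Efnb2 at -1.13 are black, and the dashed line at -0.21 is the median of all genes tested.

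The members also differed in how much libraries of 1 region varied. On the log2(TPM + 1) scale the standard deviation within regions was 0.26 for Efnb3 and 0.30 for Efnb2, against 0.52 for Efna5, 0.75 for Unc5d, 1.00 for Slit2 and 1.45 for Ntn1. The intervals of Slit2 and Ntn1 are wide for that reason, and an absence of a call there does not show equal levels. Efna5 and Efnb3 overlap no other gene in the annotation. Efna3, Epha5, Epha6, Epha7, Epha10, Ephb1, Neo1, Ntn1, Ntng1, Robo1, Robo2, Slit2, Slit3, Unc5a and Unc5c overlap genes on the opposite strand, and their values may hold reads of those genes unless counting used strand. Epha6, Ephb1, Ntn1, Robo2, Slit2, Slit3 and Unc5c also overlap genes on their own strand. Epha3, Epha4, Unc5b, Efnb2 and Unc5d overlap genes on their own strand only.

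Of 72 partner genes of these pathways in the table, which include ligands and binding proteins as well as downstream genes, 70 were tested. With limma 0 passed in either direction. Of the 70, 27 had a log2 fold change above 0 and 43 below 0, with a median of -0.14, where 68.7% of all genes tested were below 0. At an unadjusted p under 0.05, 3 were higher in lateral and 9 in medial, beside 3.03% and 12.3% of all genes tested. For Eph signalling the smallest p values were those of Pak1, a kinase acting on the actin cytoskeleton (39.0 ± 11.9 TPM in lateral shell and 69.9 ± 17 TPM in medial, log2 fold change -0.85, adjusted p = 0.109 in limma), and Tiam2, an activator of Rac (-0.64, adjusted p = 0.19). For slit signalling they were Plxna1, a plexin that binds a slit fragment (2.15 ± 0.87 TPM in lateral shell and 6.56 ± 1.65 TPM in medial, -1.27, adjusted p = 0.0809 in limma), and the Robo3 ligand gene Nell2 (77.7 ± 20.7 TPM in lateral shell and 49.7 ± 10.2 TPM in medial, 0.63, adjusted p = 0.165). Plxna1 passed without a mean-variance trend (adjusted p = 0.0482). For netrin signalling they were Cbln4, a secreted protein that binds Dcc (-2.69, adjusted p = 0.108 in limma), and Siah1a, whose product marks Dcc for breakdown (-0.67, adjusted p = 0.296). Cbln4 was at 0 to 10.02 TPM in lateral shell and 2.20 to 46.8 TPM in medial shell libraries, and without medial replicate 1 it passed (-3.38, adjusted p = 0.0178), as did Ndfip1 (-0.86, adjusted p = 0.0458). Lrrc4c, encoding the netrin-G1 partner, was at 37.7 to 61.2 TPM in lateral shell and 54.1 to 86.1 TPM in medial shell libraries (-0.63, adjusted p = 0.117 in limma), and Lrrc4 had a value of 0.26 (adjusted p = 0.632).

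In captured tissue, fewer cells of a type and less RNA per cell cannot be told apart, and several cell types contribute. Spiny projection neuron markers summed to 3493 to 5921 TPM in lateral shell and 3358 to 5532 TPM in medial shell libraries, with 0 of 10 called. Penk was the largest part of these sums, with means of 2549 TPM in lateral and 2288 TPM in medial. Before adjustment, 2 of the 10 had a p under 0.05 in limma and were higher in lateral, and 1, Tac1, in medial. The glutamatergic neuron markers Slc17a6 and Neurod6 summed to at most 3.31 TPM in lateral shell and 1.55 TPM in medial shell libraries. Endothelial markers, named because Efnb2 and Efna1 are also made by vessels, summed to 162 to 375 TPM in lateral shell and 179 to 282 TPM in medial shell libraries, and 0 of 8 were called. Markers of mural cells, the outer cells of vessels, summed to 38.1 to 462 TPM in lateral shell and 41.7 to 150 TPM in medial shell libraries, with 0 called. Among them Acta2 was at 269 TPM in lateral replicate 1, against at most 10.6 TPM in any other library. That library also had the highest Efna1 value and the highest lateral Slit2 value. Lateral replicate 5, however, had Efna1 at 5.83 TPM with Acta2 at 3.10 TPM. Medial replicate 2 had the highest Slit2 value of all libraries, 14.0 TPM, with Acta2 at 0.284 TPM. A link between these genes was not tested. All 4 neuroblast markers had log2 fold changes below 0, as had 68.7% of all genes tested, and Dcx, Cd24a and Dlx2 did not reach an unadjusted p of 0.05. Sox11, the most abundant of them, was called (10.7 ± 3.85 TPM in lateral shell and 31.6 ± 11.5 TPM in medial, -1.47, adjusted p = 0.0332 in limma), and the 4 summed to 8.36 to 27.3 TPM in lateral shell and 34.9 to 54.1 TPM in medial shell libraries. Of 10 astrocyte markers 8 had values below 0 and 1 was called, with sums of 856 to 1171 TPM in lateral shell and 1015 to 1411 TPM in medial shell libraries. Of the microglia markers 10 of 10 had values above 0 and 3 were called, with sums of 426 to 666 TPM in lateral shell and 202 to 432 TPM in medial shell libraries. Oligodendrocyte markers had 9 of 10 above 0 and 0 called, with sums of 312 to 960 TPM in lateral shell and 107 to 468 TPM in medial shell libraries. The GABAergic interneuron markers had 7 of 8 above 0, 0 called, and sums of 536 to 5690 TPM in lateral shell and 32.2 to 1698 TPM in medial shell libraries. Of 3 cholinergic interneuron markers 0 were called, with sums of 1.17 to 140 TPM in lateral shell and 1.17 to 124 TPM in medial shell libraries. No marker of these lists was at 0 in every library. The part of these cell types in the values of the members was not tested.

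**Figure D5:**
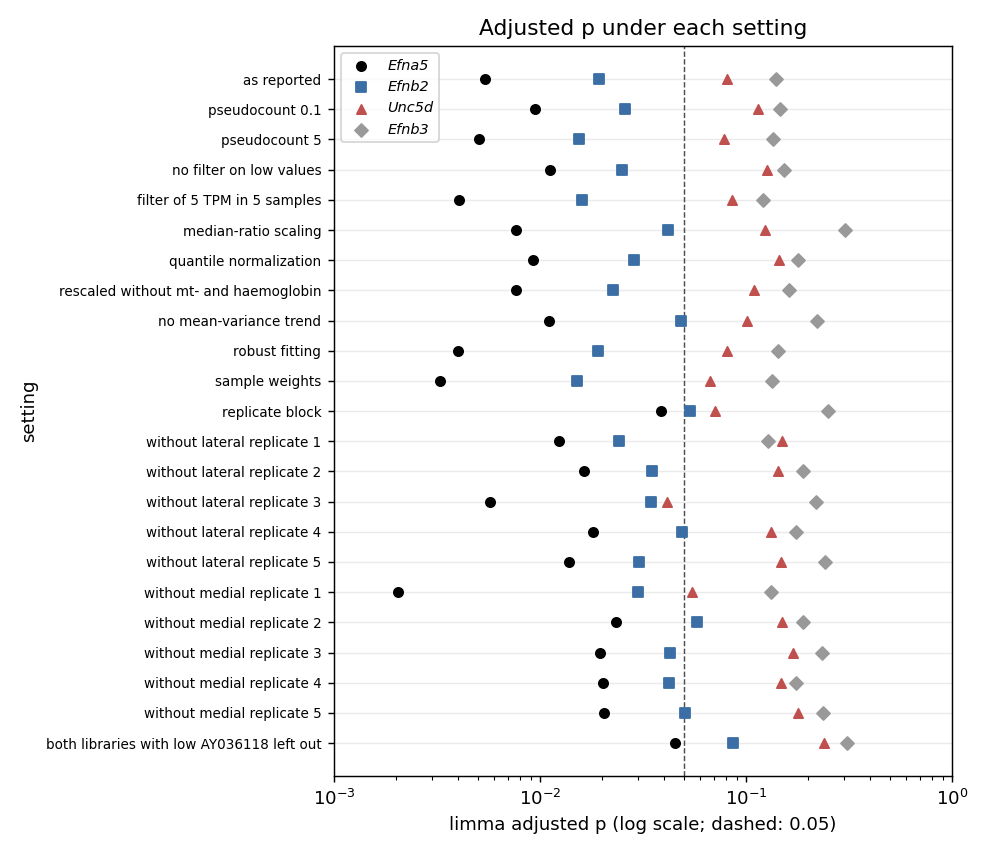
Adjusted p in limma (log axis) of Efna5, Efnb2, Unc5d and Efnb3 as reported and under 22 alternative settings, with a dashed line at 0.05. Efna5 lies left of the line in every setting, Efnb2 crosses it in 4 and Unc5d lies left of it in 1.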

How the data were processed

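The deposited table gives TPM, which the authors scaled for gene length and library total, for 20483 gene symbols in 10 columns. Tools named, without roles, in the submitters' processing notes are featureCounts 1.6.3, StringTie 1.3.4, HISAT2 2.1.0 and fastp 0.20.0, with the build GRCm38 (mm10); the sources used here give no annotation, use of strand or filter. TPM keeps no depth, so no counting interval is given. A value of 0 is called listed at 0, because 20 of 4272 genes averaging 20 TPM or more had a 0 in some library.

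From these values, limma 3.58.1 in R 4.3.3 (empirical Bayes with a mean-variance trend) was fitted to log2(TPM + 1), lateral minus medial, over 15596 genes with at least 1 TPM in at least 5 libraries. A pseudocount of 1 understates changes of low genes. Alternatives changed the pseudocount, filter, the scaling, how variance and library weights were modelled, a replicate block and which libraries were used. Scripts were tested on simulated data. Coordinates and overlaps come from GENCODE M21. Every member is accounted for; those called, with an unadjusted p under 0.05, without overlap, or highest in their class are given by library. Of the partner genes the text names any that passed and the 2 of each subgroup with the smallest p. Ndfip1 is named outside this rule, its values having been seen first. The members and lists were chosen with earlier results of these data known. Mitochondrial genes took 23.5% to 35.3% of TPM, and 15402 to 17003 genes were above 0 per library. AY036118 was at 1.38 TPM in lateral replicate 5 and 1.42 TPM in medial replicate 2, against at least 82500 TPM in the other 8. Figures were drawn with matplotlib 3.10.9.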

Additional observations from a re-analysis of the deposited data

Results flagged for a closer look

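Libraries of 1 region were compared with each other for all 30 genes, which makes 60 groups of 5, and a gap between the extreme library and its nearest neighbour above 0.71 of the group's range on the log2(TPM + 1) scale marked 3 of them. Chance marks about 1 in 20 groups. Ntn1 in medial replicate 5 was at 0.191 TPM, against 20.5 to 27.6 TPM in the other 4 medial libraries. Slit3 in medial replicate 3 was at 13.5 TPM, against 26.4 to 32.7 TPM in the others. Epha6 in lateral replicate 2 was at 21.3 TPM, against 5.95 to 7.51 TPM in the other lateral libraries.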

How the results depend on the processing

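Of 608 values of single members under 22 alternatives, 573 kept their sign and their side of the threshold, 4 of Efnb2 lost the call, 1 of Unc5d gained it and 30 changed sign; 20 of the 28 members never changed sign. Members below a filter of 5 TPM have no value there. No member was called higher in lateral under any alternative. The count of members called higher in medial was 1 with a replicate block, where Efnb2 had an adjusted p of 0.0536, and 1 without both libraries low in AY036118, and 1 to 3 without single libraries. Same-numbered libraries did not deviate together (correlations -0.05 to 0.04 across genes), so the replicate number is not taken as a pairing. Over all genes, the counts higher in lateral and in medial were 60 and 171 as reported. They were 19 and 45 with the replicate block, 34 and 111 without a mean-variance trend, 15 and 35 without both libraries low in AY036118, and 27 to 68 and 56 to 187 without single libraries. Median-ratio scaling gave 88 and 82, so that the larger count was the lateral one, and quantile normalization 86 and 100. The medial count was 107 with a pseudocount of 0.1. The count of partner genes higher in medial was 1 without a trend and 0 to 2 without single libraries. The median of the members was -0.38 with a filter of 5 TPM, which tests fewer genes, 0.21 under quantile normalization and -0.29 to 0.021 without single libraries. The signs that changed belonged to small values. Efna2 was -0.033 with a pseudocount of 5, and Efnb1 0.017 with a pseudocount of 0.1. Under median-ratio scaling, quantile normalization and rescaling without mitochondrial and haemoglobin genes, Efna3 was 0.14, 0.16 and 0.0093 and Efnb1 0.12, 0.26 and 0.036. Epha3 was -0.029 with sample weights and -0.084 without both libraries low in AY036118. Without single libraries the ranges were -0.32 to 0.33 for Efna2, -0.29 to 0.27 for Efna3, -0.37 to 0.19 for Efnb1, -0.025 to 0.45 for Epha10, -0.18 to 0.26 for Epha3, -0.23 to 0.21 for Ephb1, -0.12 to 0.24 for Unc5a and -0.024 to 0.15 for Unc5b. The cause of these changes was not tested. The depth of the libraries is unknown, so its limit on low values cannot be given; with 5 libraries per region, small differences could not be detected.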
